A study of Mus musculus with 13 samples.

Results

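The sites bound by CTCF in distal forelimb, the future hand, were compared across the autosomes with those in proximal forelimb, the future arm, of mouse embryos at E12.5. The members are all peaks that the authors called in the distal and the proximal CTCF list, taken without regard to their strength: 66758 distal and 70418 proximal peaks, together 137176 of the 427129 autosomal peaks in the 10 lists of the series used here. A peak was shared when it overlapped a peak of the other list by at least 1 bp and was otherwise distal-only or proximal-only. Peaks on X and Y were left out.

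Both libraries came from micro-dissected forelimbs of wild-type CD1 embryos and were made with the same anti-CTCF antibody (Active motif) after 10 minutes of fixation. The design text names CTCF, cohesin and a series of HoxD deletions in limb tissue, and within it this pair asks which CTCF sites differ between the ends of one limb. For comparison, the series holds RAD21 and SMC1 lists of wild-type CD1 distal forelimb, and CTCF and RAD21 lists of wild-type B6CBAF1 whole fore- and hindlimbs. It also holds whole-limb CTCF lists of B6CBAF1 embryos homozygous for del(8-13)d11lac, del(8-13)rXII (forelimbs alone, by ChIPmentation), del(1-13)d9lac or del(attP-Rel5)d9lac. Strain and tissue differ together between the forelimb parts and the whole limbs. Whether the embryos were pooled is not stated.

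CTCF is a zinc-finger protein that recognises a long, oriented DNA motif. Cohesin, the ring complex that contains RAD21 and SMC1, extrudes chromatin loops and is halted at CTCF sites, so CTCF sites often mark the borders of contact domains. In the limb bud, distal cells express Hoxa13 and the 5′ Hoxd genes and form the digits, while proximal cells, with Meis factors next to the body wall, form the long bones. Cartilage forms earlier in the proximal than in the distal part.

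Each part had 1 library, so the differences below have no replicate check, no test was made, and library and tissue cannot be told apart. The lists give no read depth, and a site without a peak is one where none was called. In these mixed tissues, fewer cells that bind CTCF at a site and less CTCF per cell cannot be told apart. Peak lists of CTCF do not show which cell types were present, so the labels of the tissues were not checked against markers. Intervals are 95% Wilson intervals over peaks or genes and cover counting error only.

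The sequences behind the calls show how one-sided and shared sites relate to the CTCF motif. A motif matrix 19 bp wide was derived from the 2000 strongest distal summits that had a proximal partner. Its letters with at least 60% of one base read NNNCCACNAGNGGGCGNNN, which gives 11 fixed letters. Capitals below mark bases that match these letters, and each sequence is written 5′ to 3′ on the strand of the match (mm10). The first lines give the 3 strongest shared sites with a motif, near Fgf20 (a fibroblast growth factor), Hif1an (an oxygen-sensing hydroxylase) and Lbr (the lamin B receptor). The others are those of the 10 strongest distal-only and 10 strongest proximal-only peaks that held a motif.
Shared, near Fgf20, chr8:40296614-40296632, plus strand: cagCCACtAGaGGaCGgtg
Shared, near Hif1an, chr19:44582877-44582895, plus strand: tgcCCACttGgGGGaGcct
Shared, near Lbr, chr1:181888953-181888971, plus strand: tagCCAgcAGaGGGCGctg
Distal-only, Foxp4 to Trem1, chr17:48203853-48203871, plus strand: tggCCACcAGaGGGCactc
Distal-only, Ptprd, chr4:77083366-77083384, plus strand: cagCCACaAGaGGGaGccc
Distal-only, Smyd3, chr1:179410920-179410938, minus strand: gcatgACtAGgGGGCGgtg
Distal-only, Tmem131l, chr3:84012046-84012064, minus strand: tctCCAgttGgtGGCactg
Distal-only, Srrm4, chr5:116538686-116538704, plus strand: tgaCCAgcAGgGGGCGgtg
Proximal-only, Ltbp1, chr17:75123081-75123099, minus strand: taaCCACaAGatGGaGatg
Proximal-only, Meis1 to Spred2, chr11:19373953-19373971, minus strand: cacCCACtAGaGGGaGtgg
Proximal-only, Fam204a to Prlhr, chr19:60432547-60432565, minus strand: tctCCACcAGatGtCaggc
Proximal-only, Mlf2, chr6:124932101-124932119, minus strand: tcagCtCcAGgGGGCtcca
Proximal-only, Cyp7b1, chr3:18211747-18211765, plus strand: ttgCCAgcAGatGcCacta
Proximal-only, Fstl1, chr16:37812621-37812639, minus strand: ctgtCAatAGgtGGCaatc
Proximal-only, Snapc2, chr8:4254183-4254201, plus strand: agtCCAggAGaGGGaGcag
The 12 one-sided motifs matched between 7 and 10 of the 11 fixed letters, and the 3 shared ones 9 or 10. The lowest matches, with 7 letters, stood in Tmem131l, Cyp7b1 and Fstl1.

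CTCF was found at the same places in the future hand and the future arm wherever its peaks were strong, and the one-sided peaks were weak ones. Distal-only peaks numbered 11273, which is 16.9% of the distal list (interval 16.6% to 17.2%), and proximal-only peaks 14995, which is 21.3% of the proximal list (20.99% to 21.6%). The 2 lists together held 81753 sites, of which 55485 were shared. Strength is given as the authors' −log10 q of a peak, which can be ranked within a list but not compared between lists. Its median was 4.45 in distal-only peaks, against 37.6 in shared peaks of the distal list. In the proximal list the medians were 4.12 in proximal-only peaks and 35.9 in shared peaks.

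The one-sided share fell with strength in both lists until no such peak was left. With each list cut into 20 bins of equal size, 76.3% of peaks in the weakest distal bin were distal-only and 85.1% in the weakest proximal bin were proximal-only. In the tenth bin the shares were 1.47% distal-only and 2.50% proximal-only, and from the thirteenth bin on every peak of either list was shared. The strongest distal-only peak had a −log10 q of 37.9, at percentile 58.6 of its list, and the strongest proximal-only peak 33.6, at percentile 59.5. A −log10 q of at least 10 was reached by 864 distal-only peaks, 1.89% of the 45770 distal peaks at that level, and by 829 proximal-only peaks, 1.82% of 45560. At 20 and above, 51 distal-only and 36 proximal-only peaks remained. Because of this dependence, many shares below stand beside the share that the peaks' strengths alone would give, computed from the same bins.

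**Figure D1:**
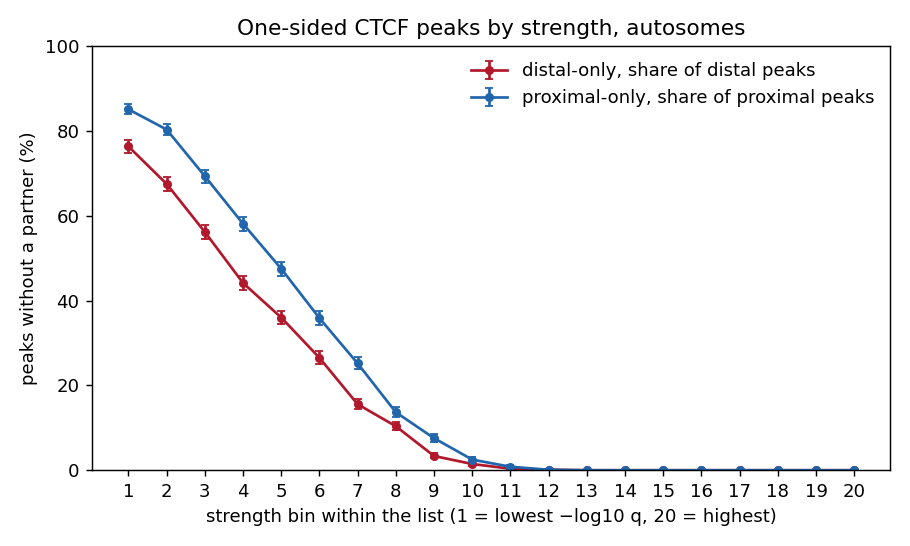
Share of peaks without a partner in the other list (vertical axis, %) in 20 bins of −log10 q of equal size (horizontal axis, weakest to strongest within each list), for distal peaks (red) and proximal peaks (blue); bars are 95% Wilson intervals. The share runs from 76.3% in the weakest distal bin and 85.1% in the weakest proximal bin to 0 from bin 13 on.

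At shared sites the 2 libraries placed CTCF almost at the same base. The summits of partners lay a median of 10 bp apart, and 93.7% were within 50 bp. Of the 55485 shared distal peaks, 55382 had a single proximal partner and 103 had several. The −log10 q of partners ranked alike (Spearman 0.956 across the 55485 sites, a description, since sites within a library share its depth). One-sided peaks were rarely a displaced version of a site of the other list: 6.20% of distal-only peaks had a proximal summit within 1 kb, and 5.18% of proximal-only peaks a distal one.

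The strongest distal-only peak had no CTCF motif and no counterpart in any other CTCF list of the series. It lay at chr9:84949053-84949438 between Bckdhb, which encodes a subunit of the branched-chain keto acid dehydrogenase, and Tent5a, a poly(A) polymerase, 378 kb from the Tent5a start. The nearest proximal summit was 146 kb away. Its −log10 q was 37.9 and its fold enrichment 9.07. A similar peak without a motif, at chr17:16149947-16150345, lay 324 kb from Rgmb, a BMP co-receptor, with a −log10 q of 35.7, in repeat-masked sequence and 215 kb from any proximal summit. Another, at chr14:107858420-107858791, stood 1056 kb from Slitrk1, a neuronal transmembrane protein, with a −log10 q of 28.0. These 3 peaks were absent from the 5 whole-limb CTCF lists and overlapped no cohesin peak.

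Other strong distal-only peaks did carry a motif and were found again in whole limbs. The peak at chr17:48203693-48204057, between the forkhead gene Foxp4 and the myeloid receptor gene Trem1, had a −log10 q of 36.5 and was present in 2 of the 5 whole-limb lists. The intronic peaks of Ptprd (chr4:77083202-77083559, −log10 q 31.0), a receptor tyrosine phosphatase, and of Srrm4 (chr5:116538553-116538861, 28.5), a splicing regulator of neurons, were present in all 5. At Ptprd a distal SMC1 peak overlapped as well, the single cohesin peak of distal forelimb among the 10. The peaks in Smyd3, a lysine methyltransferase gene (chr1:179410715-179411076, 30.9), and in Tmem131l (chr3:84011902-84012238, 28.6) were in 2 and 1 whole-limb lists. A peak 138 kb from Sncaip, the gene of synphilin-1 (chr18:52975507-52975855, 31.1), passed no motif threshold but was in 3. The peak upstream of Pitpnb, a phosphatidylinositol transfer protein gene (chr5:111303680-111304021, 36.5), lay 1.01 kb from a proximal summit.

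The 10 strongest proximal-only peaks stood closer to genes and to distal peaks. The strongest lay in an intron of Ltbp1, which encodes a latent TGF-β binding protein (chr17:75122900-75123267), with a −log10 q of 33.6 and a distal summit 2.79 kb away. The second was intronic in the cation channel gene Trpm3 (chr19:22300905-22301229, 27.1). The third lay 355 kb from Meis1, the homeobox gene of the proximal limb, towards Spred2 (chr11:19373794-19374174, 26.9), with a motif and 35.8 kb from any distal summit. A peak near Prlhr, a neuropeptide receptor gene (chr19:60432345-60432711, 26.5), was present in 4 whole-limb CTCF lists and overlapped a distal RAD21 peak with a −log10 q of 7.47, although the distal CTCF list had no peak there.

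The remaining proximal-only peaks of the 10 were mostly in or next to genes of other kinds. One lay in the promoter of Mlf2, 622 bp from its start (chr6:124931946-124932254, 25.3). Others lay near Adprhl2, an ADP-ribosyl hydrolase gene (24.7), in Cyp7b1, an oxysterol hydroxylase gene (24.7), 128 kb from Stk31, a germ-cell kinase gene (24.3), in Fstl1, which encodes a secreted glycoprotein (24.2), and in Snapc2, a subunit gene of the small nuclear RNA activating complex (23.9). Of the 10 distal-only peaks 7 lay over 50 kb from a protein-coding start, and of the 10 proximal-only peaks 4. A motif was present in 5 distal-only and 7 proximal-only peaks, and any whole-limb CTCF peak in 6 and 8.

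Over the whole lists, one-sided peaks were less often at promoters than shared peaks. Promoter summits lay within 1 kb of a start of a protein-coding gene, predicted genes included. They made up 5.16% of distal-only peaks (4.77% to 5.59%), against 9.25% of shared distal peaks. For proximal-only peaks the share was 4.21% (3.90% to 4.55%), against 9.23% of shared proximal peaks. Read by annotation, 10.2% of promoter peaks of the distal list were distal-only, where their strengths alone would give 12.4%. In the proximal list 10.995% of promoter peaks were proximal-only, where strength would give 12.2%. Among peaks with a −log10 q of at least 10 the proximal order turned. There 10.7% of proximal-only peaks were at promoters, against 9.30% of shared proximal peaks up to the strength of the strongest proximal-only peak. In the distal list 7.52% of distal-only peaks were, against 9.16% of shared distal peaks. Shared peaks were not matched for strength within these ranges.

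Intergenic peaks stood at the other end. Of distal intergenic peaks 19.9% were distal-only (18.7% from strength), and of proximal ones 25.2% were proximal-only (24.5% from strength). Introns lay near the list as a whole, with 16.1% distal-only (16.7% from strength) and 20.6% proximal-only (20.8%). UTRs had 9.24% distal-only (10.5%) and 10.9% proximal-only (12.1%), and coding exons 10.6% (10.9%) and 11.4% (13.2%). The shares from strength ran in much the same order, and the gaps to the share from strength ran from −2.24 to 1.26 percentage points in the distal list and from −3.54 to 0.73 in the proximal list. Far from genes, 47.0% of distal-only peaks lay over 50 kb from a protein-coding start, against 30.9% of all shared distal peaks and 37.4% of shared distal peaks of the same strength. For proximal-only peaks the values were 48.3%, 30.9% and 40.4%.

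**Figure D2:**
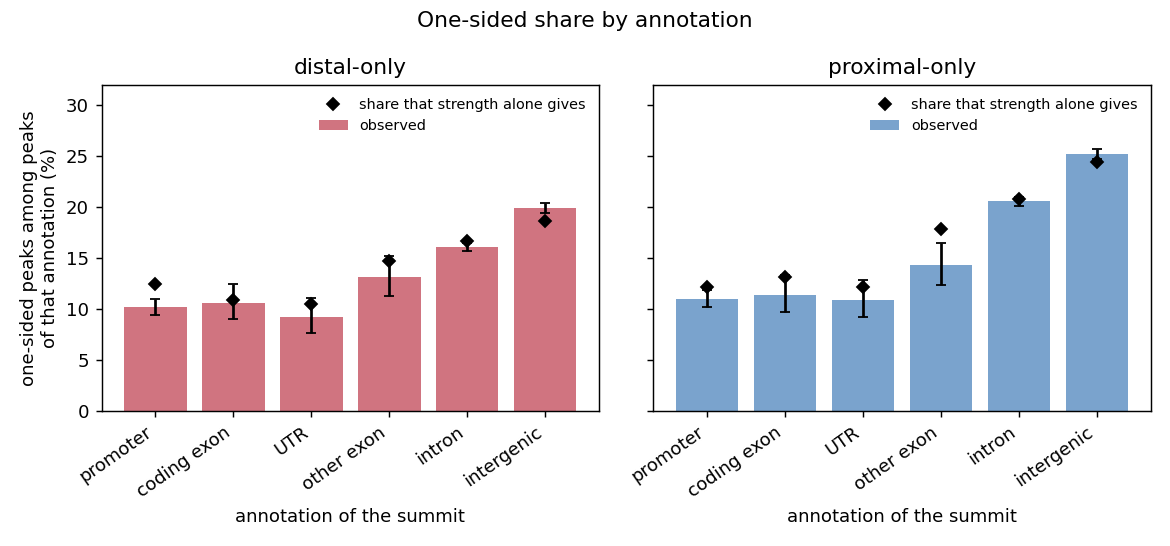
Share of peaks that were one-sided (vertical axis, %) by annotation of the summit, for the distal list (left, red) and the proximal list (right, blue); bars are 95% Wilson intervals and black diamonds the share that the strengths of those peaks alone would give. Promoter peaks, at 10.2% and 10.995%, lie below intergenic peaks, at 19.9% and 25.2%.

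Named promoters with a one-sided peak include regulators of limb development. With a −log10 q of at least 10 there were 65 distal-only and 89 proximal-only promoter peaks; the genes below were picked from these after their values were seen. Distal-only promoter peaks stood at Meis1 (chr11:19018271-19018969, 61 bp from a start, −log10 q 20.0, no motif) and at Rcc2 (21.6). Others stood at Yy1, a zinc-finger gene (19.02), at the receptor gene Pdgfra (13.9) and at the LIM homeobox gene Lhx2 (chr2:38350426-38350743, 13.1). Proximal-only promoter peaks stood at Igf1r, the receptor gene for insulin-like growth factor 1 (17.98), at the serotonin receptor gene Htr1b (22.7), at Dnm1l, which encodes a mitochondrial fission enzyme (19.5), and at Sox5, a cofactor of Sox9 in cartilage (chr6:144209566-144209815, 10.3). A motif was found in 44.6% of the 65 distal-only promoter peaks (33.2% to 56.7%), against 65.8% of shared distal promoter peaks of −log10 q from 10 up to the strongest distal-only peak. Among proximal-only promoter peaks the share was 65.2% (54.8% to 74.3%), against 64.3% of shared ones. The shared promoter peaks were not matched for strength within these ranges.

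Fewer one-sided than shared peaks carried the CTCF motif, also at like strength. A motif above 4.38 bits, a score that 5% of control windows 2 kb away reached, lay within 50 bp of the summit in 38.6% of distal-only peaks (37.7% to 39.5%). The share was 81.7% in all shared distal peaks and 48.4% in shared distal peaks of the same strength. Proximal-only peaks had a motif in 34.5% (33.7% to 35.2%), against 81.5% of shared proximal peaks and 45.9% at the same strength. The matrix was trained on strong shared peaks, which bears on the shared values.

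One-sided summits lay more often in repeats. Soft-masked sequence held 61.3% of distal-only summits (60.4% to 62.2%), against 27.7% of shared distal summits and 54.5% at the same strength. It held 67.9% of proximal-only summits (67.1% to 68.6%), against 27.6% of shared proximal ones and 56.0% at the same strength. The mean GC content within 100 bp of the summit was 46.3 ± 7.40% in distal-only and 48.7 ± 8.03% in shared distal peaks (SD over peaks), and 45.6 ± 6.78% in proximal-only and 48.7 ± 8.00% in shared proximal peaks. Shared peaks of the same strength averaged 47.1% in either list.

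Cohesin was rarely called at one-sided sites. Of distal-only peaks 1.23% overlapped a distal RAD21 or SMC1 peak (1.05% to 1.45%), against 40.2% of shared distal peaks and 4.53% of those with the same strength. Proximal-only peaks overlapped one in 1.02% (0.872% to 1.19%), against 40.3% and 4.62%. Among the 200 strongest of each kind, 10 distal-only and 9 proximal-only peaks overlapped one. Of shared peaks in the same ranges, not matched for strength within them, 13.3% and 12.1% did. The cohesin lists are from distal forelimb and hold 16065 RAD21 and 22617 SMC1 peaks, fewer than the 66758 distal CTCF peaks. Distal-only peaks overlapped them about as rarely as proximal-only peaks, with few overlaps on either side. With RAD21 of whole limbs, from another strain, the shares were 5.45% for distal-only and 5.53% for proximal-only peaks, against 12.1% of shared peaks of the same strength in either list.

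Few one-sided peaks were seen again in whole limbs. The wild-type whole-limb list had a CTCF peak at 4.58% of distal-only sites (4.21% to 4.98%) and at 3.66% of proximal-only sites (3.37% to 3.97%). Shared sites of the same strength had one in 13.8% of the distal and 13.7% of the proximal list, and all shared sites in 68.8% of both. Any of the 5 whole-limb lists had a peak at 26.9% of distal-only and 21.5% of proximal-only sites, against 55.6% and 53.1% of shared sites of the same strength. Most of these came from the largest whole-limb list, del(8-13)d11lac, which alone covered 22.0% of distal-only and 17.4% of proximal-only sites outside chromosome 2. Strain, tissue and library differ here from the forelimb parts, and their part in these shares was not tested.

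Among the 200 strongest one-sided peaks of each list, a set formed after the values were seen, the motif difference was smaller and the repeat difference was not seen in the same form. They had a −log10 q from 14.4 (distal) or 14.3 (proximal) upward. The shared peaks set beside them are all those in the same range, not matched for strength within it. Of the one-sided peaks, 51 distal-only and 36 proximal-only ones reached 20. A motif was present in 72.5% of these distal-only peaks (65.9% to 78.2%), against 81.4% of shared distal peaks in the same range of strength, and in 75.5% of the proximal-only peaks (69.1% to 80.9%), against 80.8%. Soft-masked repeats held 37.0% of distal-only summits, against 34.7%, and 27.0% of proximal-only summits (21.3% to 33.5%), against 35.3%, so that the proximal-only direction was opposite to that over all peaks. The gap in whole limbs stayed wide: 38 of the 200 distal-only peaks overlapped a wild-type whole-limb peak, where 62.6% of shared peaks did, and 31 of the 200 proximal-only peaks, where 61.2% did. A shared peak lay within 10 kb of 63.0% of the proximal-only peaks (56.1% to 69.4%), against 52.0% of shared peaks, and of 48.0% of the distal-only peaks (41.2% to 54.9%), against 51.5%.

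One-sided peaks were most common where shared CTCF sites were sparse. Only shared peaks enter this density, so a stretch with many one-sided peaks can count as sparse. Where no other shared peak lay within 50 kb, 33.0% of distal peaks were distal-only (29.1% from strength) and 42.6% of proximal peaks were proximal-only (38.8% from strength). With 3 to 5 shared peaks in that distance the shares were 13.6% and 16.5% (14.5% and 17.4% from strength), and with more than 10 they were 9.25% and 10.7%, below the 12.54% and 13.3% that strength would give. A shared peak lay within 10 kb of 35.8% of distal-only peaks (34.9% to 36.7%), against 52.0% of shared distal peaks and 44.2% at the same strength. For proximal-only peaks the shares were 33.5% (32.7% to 34.2%), 51.9% and 41.3%.

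**Figure D3:**
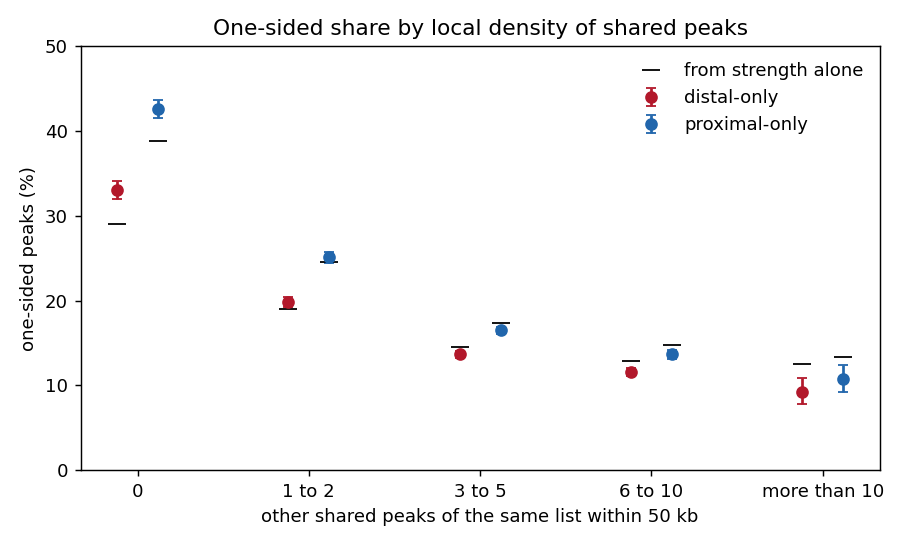
Share of peaks that were one-sided (vertical axis, %) by the number of other shared peaks within 50 kb (horizontal axis), for the distal list (red) and the proximal list (blue); bars are 95% Wilson intervals and black dashes the share from strength alone. The share declines from 33.0% to 9.25% in the distal list and from 42.6% to 10.7% in the proximal list.

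The 2 kinds of one-sided peak ranked the chromosomes in a similar order. Chromosome 1 had the highest distal-only share at 19.03%, followed by chromosomes 3 (18.7%), 13 (18.3%), 12 (18.2%) and 18 (17.9%). The lowest were chromosomes 11 (14.1%), 19 (14.3%), 17 (15.1%), 2 (15.5%) and 5 (16.1%). For proximal-only peaks chromosomes 3 (25.1%), 12 (23.4%), 1 (23.4%), 18 (23.4%) and 6 (22.8%) led, and chromosomes 11 (17.1%), 19 (17.8%), 9 (18.5%), 17 (18.9%) and 7 (19.6%) came last. Chromosomes 1, 3, 12 and 18 were thus at the upper end on both sides, and 11, 17 and 19 at the lower end. Over the 19 autosomes the 2 shares had a Spearman correlation of 0.861, and with peaks per Mb they had correlations of −0.879 (distal-only) and −0.854 (proximal-only), which are descriptions since all points come from the same 2 libraries. After the share from strength was subtracted, the 2 sides had a correlation of 0.623. At a −log10 q of at least 10 in both lists the spread between the highest and the lowest autosome was 3.55 percentage points for distal-only and 1.69 for proximal-only peaks, against 4.91 and 8.04 over all peaks.

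The shares from strength alone came close to those observed on each chromosome. The gap between observed share and share from strength was at most 1.23 percentage points for distal-only peaks, on chromosome 11, and at most 0.960 for proximal-only peaks, on chromosome 5. On chromosome 9, with 16.9% distal-only and 18.5% proximal-only peaks, the gap to the value from strength was 0.666 points for distal-only and −0.838 points for proximal-only peaks.

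**Figure D4:**
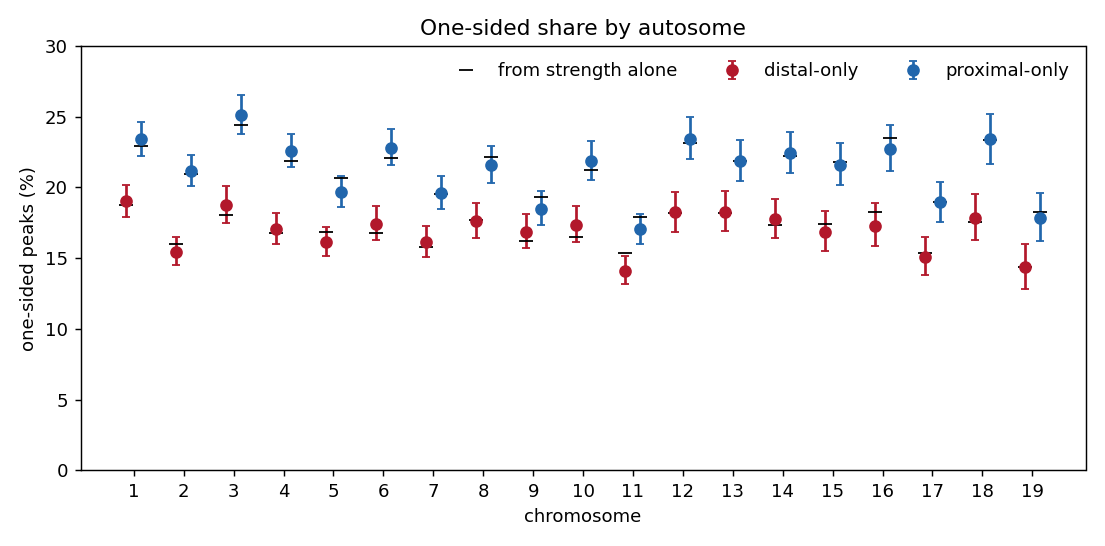
One-sided share of peaks (vertical axis, %) on each autosome (horizontal axis) for the distal list (red) and the proximal list (blue); bars are 95% Wilson intervals and black dashes the share from strength alone. Chromosome 11 is lowest on both sides, at 14.1% and 17.1%.

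The windows of 1 Mb named below are the 3 at either end of the difference between distal-only and proximal-only counts. Their uneven counts thus follow from how they were picked. Of 2083 windows with at least 20 peaks over both lists, 578 held more distal-only than proximal-only peaks, 1287 more proximal-only peaks and 218 equal numbers; the medians were 5 distal-only and 6 proximal-only peaks. Over these windows the 2 counts had a Spearman correlation of 0.245. The distal-only minus proximal-only count had a median of −2, with percentiles 5 and 95 at −7 and 4. The window at chr9:78000001-79000000, which holds Eef1a1, the gene of a translation elongation factor, and the glutathione transferase genes Gsta1, Gsta2 and Gsta4, had 13 distal-only peaks and 3 proximal-only peaks. So did chr13:36000001-37000000, with Nrn1, which encodes neuritin, and F13a1, a coagulation factor gene. The window at chr13:51000001-52000000, with the semaphorin gene Sema4d and the stress gene Gadd45g, had 17 distal-only and 7 proximal-only peaks. The strongest distal-only peak in these windows had a −log10 q of 14.9.

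The opposite windows lay on chromosomes 4, 6 and 16. At chr4:107000001-108000000, with Glis1, a zinc-finger gene, Lrp8, a reelin receptor gene, and Dio1, a thyroid hormone deiodinase gene, 2 distal-only and 17 proximal-only peaks were found. At chr6:86000001-87000000, with the growth factor gene Tgfa and Mxd1, a partner of Max, there were 3 distal-only and 17 proximal-only peaks, the strongest with a −log10 q of 17.5. At chr16:3000001-4000000, with Zfp263 and Mefv, there were 5 distal-only and 19 proximal-only peaks, with medians of 3.31 and 2.79. With the lists cut to the same length, the counts were 7 distal-only and 10 proximal-only peaks there, while the windows on chromosomes 4 (2 and 14) and 6 (3 and 15) changed less.

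Most one-sided peaks stood alone among their neighbours, and proximal-only peaks formed the longer runs. The proximal list is the longer one, and runs are given for the full lists only. How many peaks would stand alone in a random order was not computed. Among consecutive sites of the joined lists, 7948 of the 11273 distal-only peaks stood alone and the longest distal-only runs had 6 peaks. One of these spanned 419 kb at chr4:50327876-50746441, in the interval between Grin3a, a glutamate receptor gene, and Cylc2, and the other lay at Pabpc1, a poly(A) binding protein gene (chr15:36609444-36677714). A run of 5 lay at Mettl24 (chr10:40762621-40789690). Of the 14995 proximal-only peaks 8889 stood alone. The longest proximal-only run had 13 peaks at chr12:61975930-62827664, which covers 852 kb of the interval between Lrfn5, a synaptic adhesion gene, and Fscb. Further runs were of 10 peaks between Btbd3 and Sptlc3 on chromosome 2 and of 9 between Adam6a and Zfp386 on chromosome 12. Median −log10 q in these 6 runs was between 2.87 and 5.25, near the calling threshold.

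Around genes, 45% of 20780 protein-coding genes had a distal-only peak within 50 kb of a start and 52.9% a proximal-only peak. These are the values against which the gene lists are read. Genes that lie together, such as those of a Hox cluster, share the same peaks, so distinct peaks are counted as well.

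More genes of the distal limb patterning list had a distal-only than a proximal-only peak. Of the 20 genes of this list 14 had a distal-only peak within 50 kb (70.0%, interval 48.1% to 85.5%) and 4 a proximal-only peak (20.0%, 8.07% to 41.6%). The distal-only peaks were 19 distinct peaks, 19.2% of the 99 distal peaks near these genes, where strength would give 15.7%. The proximal-only peaks were 5, which is 5.95% of 84 proximal peaks, where strength would give 12.0%. The distal-only peaks were mostly weak, with a median −log10 q of 5.63, and 10 of the 19 held a motif. At a −log10 q of at least 10 in both lists the counts were 3 genes with a distal-only and 3 with a proximal-only peak, where 22.5% and 23.8% of all protein-coding genes had one. All counts at this setting include peaks whose partner lay below 10. No test was made of the difference between the 2 kinds, and no interval was computed for the shares of distinct peaks. Hoxd13, Hoxd12 and Evx2 were counted separately, although they share 1 distal-only peak of 1.88. The list was chosen with earlier results of these data known.

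Hoxa13 and Bmp7 had the most one-sided peaks of the list, 4 each, and 5 members had 2, of which Msx1 and Wnt5a held the strongest. Hoxa13, the homeobox gene that specifies digits, had 2 distal-only and 2 proximal-only peaks. Its stronger distal-only peak, at chr6:52264842-52265131, lay 4.10 kb from the Hoxa13 start, with a −log10 q of 19.5, no motif and no peak in any whole-limb list. Bmp7, a bone morphogenetic protein gene, had 3 distal-only peaks and 1 proximal-only peak of 14.0 in its intron (chr2:172900958-172901254). The strongest of the distal-only peaks (8.92) lay at the Spo11 promoter, 39.8 kb from Bmp7. Msx1, a homeobox target of BMP signalling, had 1 of each kind (8.41 distal-only, 3.10 proximal-only). Wnt5a, the ligand that drives outgrowth, had 2 distal-only peaks (7.26 and 6.86), both intergenic, and no proximal-only peak.

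Other members of the list, named after their values were seen, had distal-only peaks and no proximal-only peak. They were Shh (2 peaks, up to 5.63), which is made in the posterior margin, the LIM homeobox genes Lhx9 (2, up to 4.45) and Lhx2 (1, 13.1), Tfap2b (2, up to 3.42), Sall3 (1, 6.24), Jag1 (1, 5.63) and Grem1 (1 at its promoter, 3.91), the BMP antagonist that sustains outgrowth. Hoxd13, Hoxd12 and Evx2 share a single weak distal-only peak of 1.88. In the opposite direction, Msx2 had a proximal-only peak at its promoter (3.60) and no distal-only peak. Sall1, Aldh1a2, Cyp26b1, Dach1 and Bmp2 had neither kind.

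Cartilage and joint genes had more proximal-only than distal-only peaks, but their shares were within counting error of those of all genes. Of 20 genes 6 had a distal-only peak (30.0%, 14.5% to 51.9%) and 13 a proximal-only peak (65.0%, 43.3% to 81.9%). There were 8 distinct distal-only peaks, 7.62% of 105 distal peaks (9.19% from strength), and 22 distinct proximal-only peaks, 18.6% of 118 proximal peaks (16.3% from strength). The median −log10 q was 5.64 for these distal-only and 5.34 for these proximal-only peaks. At a −log10 q of at least 10 in both lists the counts were 5 genes and 3 genes, where 22.5% and 23.8% of all protein-coding genes had one. These counts include peaks whose partner lay below 10. Without any partner, peaks of at least 10 were distal-only near Comp and Prg4 and proximal-only near Sox5. Sox5 had no distal-only and 3 proximal-only peaks, the strongest at its promoter (10.3, with a motif). Gdf5, a growth factor gene of joints, likewise had no distal-only and 3 proximal-only peaks (up to 7.49), which lay in introns of Uqcc1 and Cep250. Comp, a cartilage matrix gene, had 1 distal-only peak (10.7, in an intron of Crtc1) and 2 proximal-only peaks (up to 4.79). Sox6 had 2 distal-only peaks (up to 6.25) and 1 proximal-only peak (6.41). The strongest distal-only peak near these genes had a −log10 q of 20.8 at chr1:150497692-150497988, 31.7 kb from Prg4, the lubricin gene of joints. It was present in all 5 whole-limb lists and held a motif. It stood at percentile 46.8 of the distal list, and the Sox5 promoter peak at percentile 36.1 of the proximal list.

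Of 20 proximal patterning genes 10 had a distal-only peak (50.0%, 29.9% to 70.1%) and 11 a proximal-only peak (55.0%, 34.2% to 74.2%), near the shares of all genes. Within 20 kb the counts were 4 and 9. At a −log10 q of at least 10 in both lists they were 10 and 7 of the 20, where 22.5% and 23.8% of all protein-coding genes had one. The shares at that threshold were above those of all genes on both sides, and the difference was not tested. They include peaks whose partner lay below 10, and distinct peaks were not counted there. Without any partner, distal-only peaks of at least 10 lay only at Meis1 (20.0) and near Hoxa9, Hoxa10 and Hoxa11, which share 1 peak of 19.5. Such proximal-only peaks lay only near Shox2 (15.2) and Hand2 (10.4). Hoxa10 and Hoxa11, which pattern upper arm and forearm, share the peaks given for Hoxa13. Meis1 had a distal-only peak of 20.0 on its promoter and a proximal-only peak of 3.32 in its intron, and Irx5, an Iroquois gene, had 1 distal-only (7.80) and 2 proximal-only peaks (up to 8.04) within 3 kb of its start. Shox2, which is needed for the upper arm, had no distal-only and 2 proximal-only peaks, the stronger at 15.2 in an intron of Rsrc1, a gene named here after its values were seen.

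Lists for other cell types of the limb gave small counts, and their intervals all included the shares of all genes, 45% and 52.9%. Of 16 muscle genes 4 had a distal-only (25.0%, 10.2% to 49.5%) and 7 a proximal-only peak (43.8%, 23.1% to 66.8%). Pax3, which marks migrating muscle precursors, had 2 distal-only peaks (up to 10.9) and none in the other direction, while Pax7 (up to 12.8), a factor of muscle precursors, had 2 proximal-only peaks. Myog, a factor of muscle differentiation, had 1 distal-only (5.41) and 2 proximal-only peaks (up to 5.23). Of 10 blood genes 3 had a distal-only (30.0%, 10.8% to 60.3%) and 7 a proximal-only peak (70.0%, 39.7% to 89.2%). Csf1r, the macrophage growth factor receptor gene, had 4 proximal-only peaks. The strongest (15.8) lay in an intron of Pdgfrb, 39.5 kb from Csf1r. Spi1, a myeloid factor gene, had 2 (up to 3.60). The erythroid genes Hemgn (8.58 distal-only, at the Trmo promoter, and 3.10 proximal-only) and Epb42 (5.03 and 3.08) had 1 of each kind.

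Endothelial, neural and ectodermal genes were mixed, with intervals that likewise included the shares of all genes. Of 10 endothelial genes 5 had a distal-only and 4 a proximal-only peak. Flt1, a VEGF receptor gene, had 2 distal-only peaks (up to 10.6), Esam 2 distal-only (up to 6.04) and 1 proximal-only (4.12), Cdh5, the endothelial cadherin gene, 1 of each kind (7.67 and 2.50), and Sox17 2 proximal-only peaks (up to 2.76). Of 10 neural and Schwann cell genes 4 had a distal-only and 6 a proximal-only peak, among them Stmn2 (2.38 distal-only, up to 8.33 proximal-only), Ngfr (3.13 and 6.41) and Sox2 (4.45 and 6.41). Of 12 genes of ectoderm and apical ridge 6 had a distal-only and 7 a proximal-only peak. Dlx5 and Dlx6 share a distal-only peak of 8.19 and a proximal-only peak of 3.24, and Cdh1 (3.26 and 3.60) and Fgf8, a growth factor gene of the ridge (2.37 and 3.40), had 1 of each kind.

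Of 12 housekeeping genes 7 had a distal-only peak (58.3%) and 8 a proximal-only peak (66.7%). Eef1a1 had 3 distal-only peaks (up to 6.25) and no proximal-only peak, Tbp, the TATA-binding protein gene, 1 and 3, and Sdha, a respiratory chain gene, 1 and 2. The counts of Eef1a1 were as uneven as those of Wnt5a and Gdf5.

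**Figure D5:**
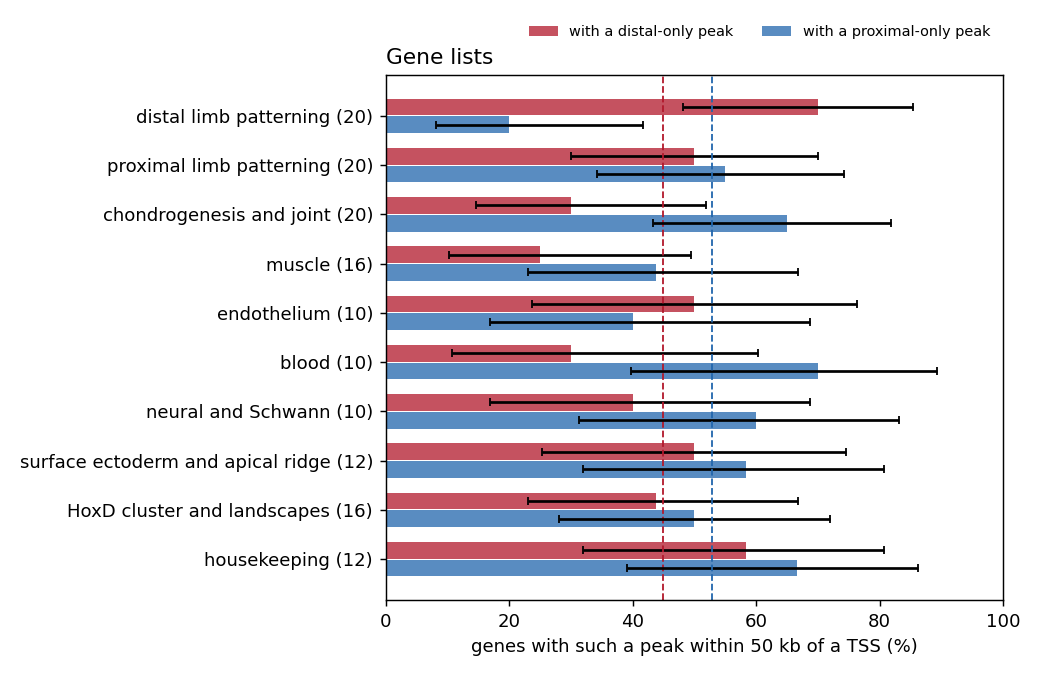
Share of the genes of each list (vertical axis, number of genes in brackets) with a distal-only peak (red, upper bar) or a proximal-only peak (blue, lower bar) within 50 kb of a start (horizontal axis, %); bars are 95% Wilson intervals over genes and dashed lines the shares of all protein-coding genes, 45% and 52.9%. The distal patterning list stands at 70.0% and 20.0%, and the cartilage and joint list at 30.0% and 65.0%.

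At the HoxD cluster itself (chr2:74652991-74765142) CTCF was bound at the same sites in both parts. All 10 distal and all 9 proximal peaks between Evx2 and Hoxd1 were shared, and the count differs because the distal list had a second, weak peak in Evx2 (−log10 q 7.09) that falls within one wider proximal peak. Within 1 Mb on either side of the cluster 5 of 70 distal peaks were distal-only (7.14%, 3.09% to 15.7%), where strength would give 15.9%, and 21 of 85 proximal peaks were proximal-only (24.7%, 16.8% to 34.8%), where strength would give 24.7%. The HoxD list of 16 genes had 7 with a distal-only and 8 with a proximal-only peak, from 3 and 10 distinct peaks.

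The 5 distal-only peaks of the HoxD region were scattered. The strongest lay near Atf2, a leucine zipper factor gene of the centromeric side (chr2:73897089-73897448, 10.98), with a motif and a peak in the wild-type whole-limb list. One in an intron of Chn1, which encodes chimaerin, and one 130 kb from Mtx2, a mitochondrial import gene, both had 5.03. A peak 12.46 kb from the Evx2 start, on the side of Lnpk, had 1.88, and one 78.2 kb from Mtx2 had 1.90. None of these 4 held a motif or overlapped a whole-limb CTCF peak.

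The 21 proximal-only peaks lay 10 on the centromeric and 11 on the telomeric side. On the centromeric side 3 stood at or between Chn1 and Atf2 (5.83, 10.3 and 8.30), 2 in Atf2 (2.63 and 7.92), 3 beyond Atp5g3, a subunit gene of the ATP synthase (3.10, 3.95 and 3.59), and 2 at or towards Lnpk (5.34 and 5.81), an endoplasmic reticulum protein gene. On the telomeric side one lay 19.2 kb beyond Hoxd1 (chr2:74782029-74782309, 6.41), with a motif and 66.2 kb from any distal summit. The interval between Mtx2 and Hnrnpa3, an RNA-binding protein gene, held 8, with the strongest at chr2:75512693-75512958 (15.1), which was in 2 whole-limb lists. Their other values were 4.12, 8.95, 4.67, 4.67, 5.65, 4.58 and 5.71. The last pair lay at the Hnrnpa3 promoter (2.94) and in Nfe2l2, a factor gene of the oxidative stress response (4.12). A motif was present in 13 of the 21.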

How the data were processed

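CTCF was profiled by ChIP-seq in distal and in proximal forelimb, 1 library each. Per the submitters' processing notes, the tools were cutadapt, Bowtie2 and MACS2 (versions not given in the sources used here) and the genome was mm10. The deposited narrowPeak lists hold the authors' −log10 q-value and fold enrichment over local background (a ratio) of each called peak. Both rest on sequencing depth, which the lists do not record. Neither list holds a peak with a q-value above 0.05, so a missing peak reflects that threshold. Rows that repeat an interval were collapsed and kept the summit with the best q-value (1182 distal and 1260 proximal rows), and autosomes were kept. No peak lay beyond the end of its chromosome in GRCm38.p6. Coordinates are 1-based.

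Annotation was by GENCODE release M21 (basic), in the order promoter (within 1 kb of a protein-coding start), coding exon, UTR, other exon, intron and intergenic. Shares from strength use 20 equally filled bins of −log10 q. The motif matrix was derived from the summits themselves, and the best match within 50 bp was kept. Overlap, merging and motif steps were tested on simulated data. Python 3.11.15, numpy 2.4.6, scipy 1.17.1 and pandas 2.3.3 were used.

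Sites and genes were named by rule: the 10 strongest one-sided peaks per list, the 3 windows of 1 Mb at either extreme, up to 3 longest runs, one-sided peaks within 1 Mb of HoxD, up to 4 members per gene list and 5 chromosomes at either end. Predicted genes were passed over. Some named members of the gene lists are not reported here. Members and lists were chosen with earlier results of these data known. Alternatives were a minimum −log10 q of 10, coverage of at least 50%, summits within 200 bp, equal list length, the upper 50% of each list, and X and Y kept. The 200 strongest peaks, promoter peaks of a −log10 q of at least 10, the distances of 20 and 100 kb for gene lists, and gene lists and windows under these alternatives were chosen after the data were seen.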

Additional observations from a re-analysis of the deposited data

How the results depend on the processing

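No paired analysis was possible because each forelimb part had 1 library. The shares of distal and of proximal peaks that were shared were 83.1% and 78.7%. They became 91.4% and 91.8% with a −log10 q of at least 10 required in both lists, 82.5% and 78.0% with at least 50% covered, 82.4% and 78.2% with summits within 200 bp, 82.3% and 82.2% with lists of equal length, 99.95% and 99.91% for the upper 50% of each list, and 82.6% and 77.8% with X and Y kept. The excess of proximal-only over distal-only peaks depends on list length: with equal lengths there were 11815 distal-only and 11880 proximal-only peaks, and at a −log10 q of at least 10 the order turned, with 3914 and 3724. The upper 50% held 16 distal-only and 33 proximal-only peaks. Promoter shares of distal-only and proximal-only peaks were 7.18% and 10.9% at a −log10 q of at least 10 and 0 and 6.06% in the upper 50%, and 4.96% of proximal-only peaks with equal lengths. Shares with a wild-type whole-limb CTCF peak were 23.6% (distal-only) and 21.4% (proximal-only) at a −log10 q of at least 10, 5.49% and 4.30% with summits, 31.2% and 24.2% in the upper 50%, and 4.28% of proximal-only peaks with equal lengths. A threshold of 10 in both lists also turns pairs with 1 partner below it into one-sided peaks, which is how 3914 exceeds the 864 without any partner. The other causes were not tested.

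Of the distal patterning genes, 14 had a distal-only and 4 a proximal-only peak with 50% coverage, summits or equal lengths, but 3 and 3 at a −log10 q of at least 10. Within 20 kb they were 10 and 2, within 100 kb 16 and 9. The shares of all genes at these 2 distances are not given here. For cartilage and joint genes the counts were 5 and 3 at a −log10 q of at least 10, 3 and 6 within 20 kb and 11 and 17 within 100 kb. Gene counts at a −log10 q of at least 10 include peaks whose partner lay below 10. For proximal patterning genes they were 18 and 16 within 100 kb. Shares with a distal cohesin peak were 4.39% (distal-only) and 4.48% (proximal-only) at a −log10 q of at least 10, and the spread over autosomes of the proximal-only share was 5.79 points with equal lengths. Unknown depth and the single library per part limit all of these values.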
